A study of Mus musculus with 24 samples.

Results

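The comparison described here sets the lumbar cords of 4 SOD1-G37R males treated with MIF, delivered by an AAV-PHP.eB vector, beside those of 4 SOD1-G37R males left untreated. These 8 cords were chosen from the 24 of the series by their labels alone, and all 15524 genes of the deposited table were compared. The 4 MIF-treated mice carried the SOD1-G37R transgene and received the vector, labelled AAV-PHP.eB-MIF with an HA tag, once disease had begun. The 4 untreated SOD1-G37R mice carried the same transgene and received nothing, so that the vector itself and the MIF it carried cannot be told apart. A further 4 untreated males without the transgene (NT) entered the same fit. The transgene is a human SOD1 with the G37R substitution flanked by lox sites, in mice bred with C57BL6. No source used here gives the age of the MIF-treated mice or the experiment they belonged to. They were placed with the 4 untreated and the 4 NT males because their label codes share one pattern, and a difference in age or handling cannot be told apart from the treatment.

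SOD1-G37R mice are a slowly progressing model of familial amyotrophic lateral sclerosis, in which motor neurons of the spinal cord degenerate while microglia and astrocytes take on a reactive state. MIF, macrophage migration inhibitory factor, is a cytokine and a chaperone-like protein that binds misfolded SOD1, and its best known cell surface receptor is CD74. CD74 is also the invariant chain of MHC class II, which fills the peptide groove of new class II molecules and guides them to endosomes, where H2-DM exchanges its remnant for antigenic peptides. AAV-PHP.eB is an engineered capsid that crosses the blood-brain barrier of C57BL6 mice after intravenous injection.

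RNA of the lumbar cord was read by MARS-seq, which tags the 3′ ends of polyadenylated transcripts, and the values deposited per mouse behave as log2 levels. Differences are therefore given in log2 units, as the mean of the MIF-treated mice minus the mean of the untreated SOD1-G37R mice, with the standard error (SE) of the limma fit. The number of reads behind each value is not recoverable from these levels. Each cord carried strong neural signal, with Snap25, a synaptic vesicle fusion protein, at 9.19 to 10.09 and Mbp, the major myelin protein, at 14.12 to 14.53 in the 8 mice. One feature set libraries apart within both groups. Hba-a1, a haemoglobin chain, stood at 10.15, 4.93, 5.53 and 5.36 in MIF-treated mice 1 to 4 and at 9.74, 8.54, 5.59 and 4.84 in untreated SOD1-G37R mice 1 to 4, so that 1 treated and 2 untreated cords held far more red cell RNA than the others. The NT cords held 4.32 to 5.51. The leading results are given with and without those 3 cords.

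Cd74 had the smallest p of all genes between MIF-treated and untreated mice by limma. Its level was 7.79, 7.32, 7.26 and 8.14 in MIF-treated mice 1 to 4, against 6.07, 6.44, 6.57 and 6.26 in untreated SOD1-G37R mice 1 to 4 and 5.07, 5.12, 5.09 and 4.96 in NT mice 1 to 4. The 3 groups did not overlap, and the lowest treated cord lay above the highest untreated one. Cd74 (chromosome 18, 60803848 to 60812652, plus strand, GRCm38) rose by 1.29 in MIF-treated mice (SE 0.17, 95% interval 0.94 to 1.65), with means of 7.63 ± 0.42 against 6.33 ± 0.22 (SD, n = 4 each) and an adjusted p of 0.016 by limma over all genes. It was the 1 gene of 15524 to pass, or 0.00644%. An exact two-sided permutation test over the 70 splits of the 8 cords gave p = 0.029, the smallest that this design allows. Any gene whose 2 groups do not overlap has that p, which holds for 279 genes (1.8%), so it adds nothing to the separation seen above.

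The adjusted p of Cd74 depended on which cords set the spread, while its difference stayed between 1.12 and 1.42 when any 1 of the 12 cords was left out. With limma it missed the threshold without MIF-treated mouse 1 (adjusted p = 0.092) and without untreated mouse 1 (0.107), 2 (0.053) or 4 (0.103). It also missed in a fit of the 8 cords alone (adjusted p = 0.195), where no gene passed and 464 genes had an unadjusted p under 0.05. Without the 3 cords of high Hba-a1 the Cd74 difference was 1.16 with an adjusted p of 0.977 by limma. In that fit 3 MIF-treated cords were set against 2 untreated ones.

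In the same 12 males Cd74 was 1.27 higher in untreated SOD1-G37R than in NT mice (adjusted p = 3.7e-04, limma). The other experiment of the series had 12 mice, females and males, and shares no animal with these. There Cd74 was 1.66 higher in SOD1-G37R than in NT mice (adjusted p = 1.3e-08, limma with a sex term). The comparison with NT and the comparison with MIF-treated mice share the untreated SOD1-G37R cords, so the values stand side by side and are not independent of each other. The MIF-treated cords therefore lay further from NT on this gene than the untreated SOD1-G37R cords did.

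**Figure D1:**
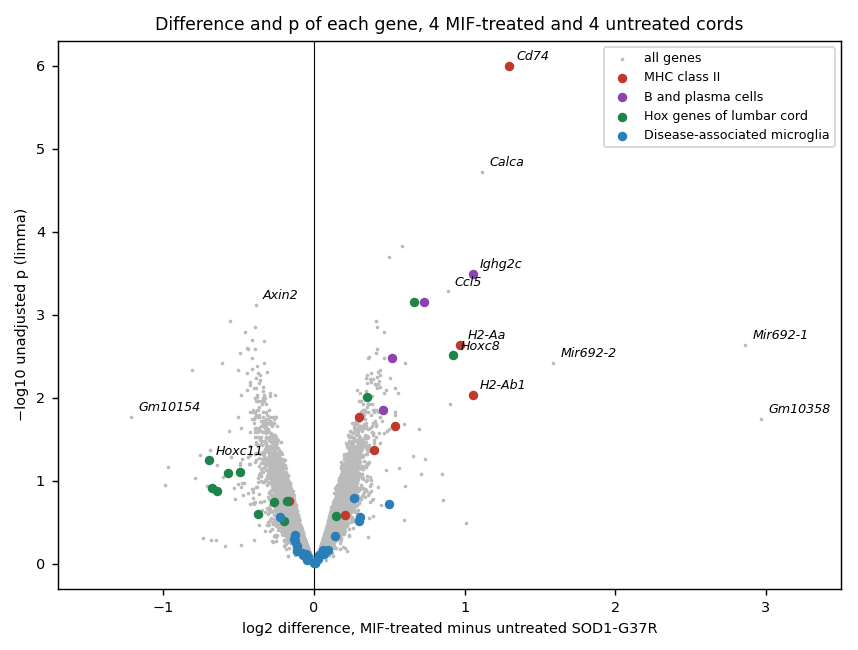
Log2 difference of each of the 15524 genes (x axis, MIF-treated minus untreated SOD1-G37R) and its unadjusted p by limma (y axis, −log10); coloured points are members of 4 gene lists. Cd74 stands highest at a difference of 1.29, Calca follows at 1.11, and the disease-associated microglia genes lie between -0.22 and 0.50.

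For the rest of the transcriptome the differences were small. The median difference over all genes was 0.00 and the median SE 0.13. For 15438 genes (99.4%) the 95% interval lay within 1 log2 unit of 0 on either side. An unadjusted p under 0.05 was reached by 511 genes (3.29%), by 277 with the higher level in MIF-treated mice (1.78%) and by 234 with the lower one (1.51%). The groups did not overlap for 149 genes with the treated cords above (0.96%) and 130 with the treated cords below (0.837%). Apart from Cd74, every gene named below missed the adjusted threshold, and its values are a description.

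The class II chains that Cd74 escorts leaned the same way, with more spread between mice. H2-Aa, the class II alpha chain, stood at 7.27, 5.73, 5.94 and 6.68 in MIF-treated mice 1 to 4, against 5.72, 5.32, 5.77 and 4.92 in untreated SOD1-G37R mice and 4.21, 4.29, 4.57 and 4.52 in NT mice. MIF-treated mice 1 and 4 were well above all untreated cords, while mouse 2 lay within their range. The difference was 0.97 (SE 0.27, adjusted p = 1.0 by limma), and the exact permutation p was 0.057. H2-Ab1, the beta chain that pairs with it, stood at 7.10, 5.44, 5.32 and 6.30 in MIF-treated mice, against 5.73, 4.93, 5.08 and 4.21 in untreated SOD1-G37R mice and 3.60 to 4.54 in NT mice. Its difference was 1.05 (SE 0.36), again carried mostly by MIF-treated mice 1 and 4, and it was 0.70 without mouse 1.

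H2-Eb1, the other class II beta chain, stood at 5.28, 4.09, 4.23 and 4.52 in MIF-treated mice, against 4.48, 3.66, 3.98 and 3.84 in untreated SOD1-G37R mice and 3.29 to 3.38 in NT mice. The difference was 0.54 (SE 0.21), and 0.29 without MIF-treated mouse 1. In both SOD1-G37R groups the cord of highest H2-Eb1 was mouse 1, which was also that of highest Hba-a1. H2-DMb1, the beta chain of the peptide exchange factor H2-DM, differed by 0.40 (SE 0.18), and by 0.23 without untreated mouse 4. Its partner chain H2-DMa differed by 0.20 (SE 0.18), and by 0.041 without MIF-treated mouse 1. H2-Oa and H2-Ob form H2-O, the inhibitor of H2-DM, and are low in this tissue. H2-Oa stood at 1.80, 1.74, 1.78 and 1.58 in MIF-treated mice, against 1.30, 1.38, 1.54 and 1.48 in untreated SOD1-G37R mice and 1.23 to 1.68 in NT mice. Treated and untreated cords did not overlap, and the difference was 0.30, or 0.19 without the 3 cords of high Hba-a1. H2-Ob pointed the other way, at -0.16.

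As a list, 6 of the 8 measured class II pathway genes had an unadjusted p under 0.05 with the higher level in MIF-treated mice, beside 1.78% of all genes, and 7 of 8 differences were above 0. Their median difference was 0.47 beside 0.00 for all genes. The mean level over the 8 genes was 5.21, 4.46, 4.51 and 4.80 in MIF-treated mice 1 to 4, against 4.34, 4.08, 4.37 and 3.88 in untreated SOD1-G37R mice and 3.47 to 3.67 in NT mice. These list means did not overlap between groups, but they hold Cd74, which did not overlap by itself. The count and the median hold Cd74 too, so none of the 3 is separate from the Cd74 result. Of the 8 genes, 2 (Cd74 and H2-Oa) did not overlap with the treated cords above, beside 0.96% of all genes. Without the 3 cords of high Hba-a1 the count was 4 of 8, beside 2.54% of all genes in that fit, the median was 0.42, and H2-DMa differed by -0.06. The median was 0.31 without MIF-treated mouse 1. H2-Eb2, H2-DMb2 and the class II transactivator Ciita were not analysed here.

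**Figure D2:**
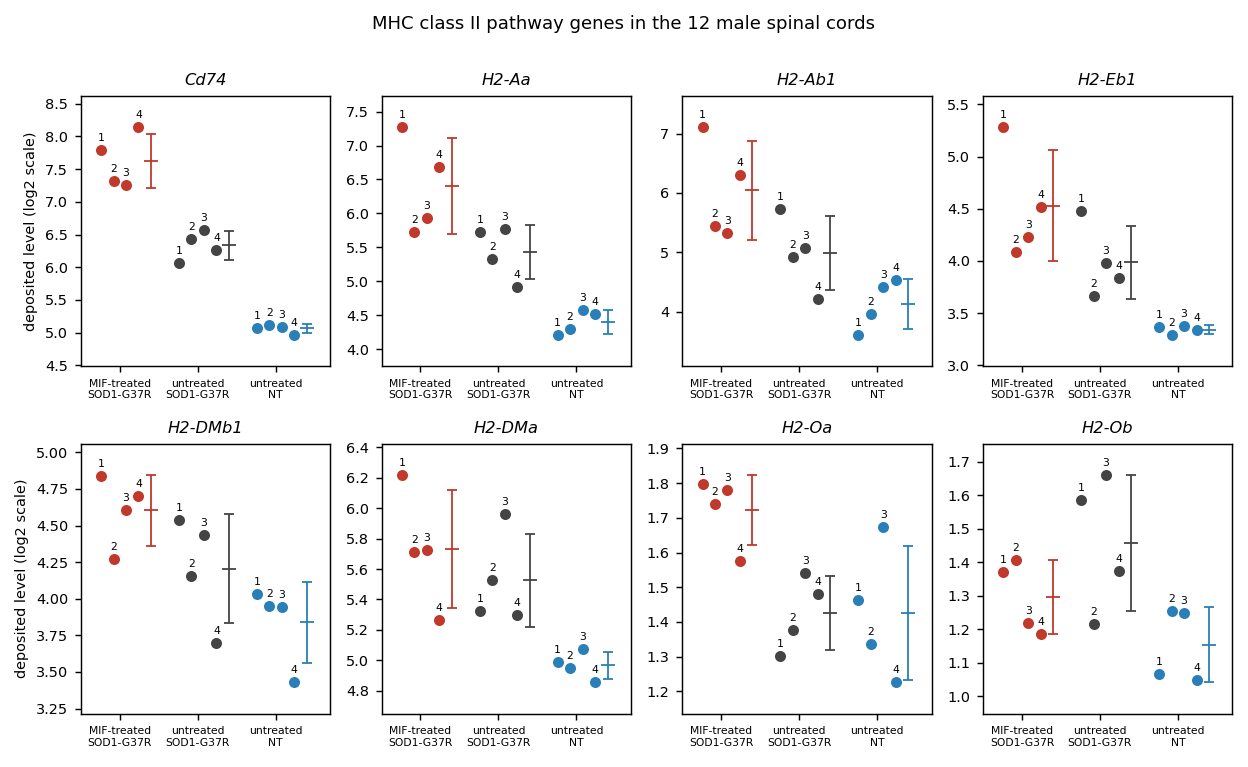
Deposited levels (log2 scale, y axes) of 8 MHC class II pathway genes in each of 12 male cords, numbered by mouse; the bar beside each group is the mean ± SD of its 4 mice. For Cd74 all MIF-treated cords (7.26 to 8.14) lie above all untreated SOD1-G37R cords (6.07 to 6.57); for H2-Aa, H2-Ab1 and H2-Eb1 mice 1 and 4 are the highest treated cords.

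Class II genes share a promoter module whose Y box, an inverted CCAAT element, is bound by NF-Y. The stretches around it are shown because Cd74 is a member of the class II pathway list, as it is of the list of MIF and its receptors. The letters CTGATTGG were searched on both strands in RefSeq promoter windows (GRCm38.p6, 250 bases before to 50 after the start of each gene). They occur in 4.1% of all 32851 windows, which belong to 27025 genes. Of the 6 class II pathway genes that had a window, 3 had a match, H2-Aa, H2-Eb1 and H2-Oa. No match was found for H2-DMa, H2-DMb1 and H2-Ob. The first value is a share of windows and the second a count of genes, and a gene can have several windows. The windows of Cd74 and H2-Ab1, the genes of largest difference in the list, were not analysed here. Each line gives 30 bases, read 5′ to 3′ along the gene, with the matched letters in capitals.
H2-Aa (chr17:34287856-34287885, minus strand, match begins 51 bases before the start): aagagaattttCTGATTGGttctggcgagt
H2-Eb1 (chr17:34305794-34305823, plus strand, match begins 62 bases before the start): ctcctttgatgCTGATTGGctcccagcact
H2-Oa (chr17:34092322-34092351, plus strand, match begins 46 bases before the start): agagaactgctCTGATTGGctgcttaccgc
All 3 matches read in the direction of their gene.

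MHC class I genes, which present peptides made inside the cell, were closer to level. Of the 14 measured, none had an unadjusted p under 0.05, 13 had a difference above 0, and the median was 0.18. H2-D1, a classical class I heavy chain, differed by 0.29, B2m, the light chain shared by all class I molecules, by 0.30, and Tap1, a subunit of the peptide transporter, by 0.30. These values leaned on single cords: without MIF-treated mouse 1, B2m differed by 0.050, Tap1 by 0.16 and the list median was 0.054, and without untreated mouse 2 H2-D1 differed by 0.17. The class I median was 0.01 without the 3 cords of high Hba-a1. The endosomal proteases that trim CD74 and antigens had a median of -0.01 over 10 genes, with none at an unadjusted p under 0.05.

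Mif itself did not differ beyond its spread. Its level was 10.02, 9.73, 9.77 and 9.57 in MIF-treated mice 1 to 4, against 9.72, 9.53, 9.78 and 9.71 in untreated SOD1-G37R mice and 9.65, 9.58, 9.91 and 9.75 in NT mice. The difference was 0.09 (95% interval -0.16 to 0.33), with an exact permutation p of 0.429. Reads at the 3′ end of the mouse gene need not count a vector transcript with another end, so this value neither shows nor dismisses expression of the vector. Of the other MIF receptors and relatives, Cxcr4, a chemokine receptor that also binds MIF, differed by -0.23, Cd44, the signalling partner of CD74, by -0.15, and Ddt, the close homologue of MIF, by 0.04, with the groups overlapping in each. Cxcr4 differed by -0.34 to -0.10 when any 1 mouse was left out. Sod1, the mouse gene of the enzyme whose mutant form drives the model, stood at 9.98 to 10.34 in MIF-treated mice at 10.10 to 10.50 in untreated SOD1-G37R mice and at 10.23 to 10.32 in NT mice, with a difference of -0.10 between the SOD1-G37R groups, or -0.004 without untreated mouse 1.

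Calca came next after Cd74. It encodes calcitonin gene-related peptide, a neuropeptide of motor neurons and of pain-sensing afferents. Its level was 7.21, 7.33, 6.52 and 7.12 in MIF-treated mice 1 to 4, against 5.45, 6.20, 5.97 and 6.11 in untreated SOD1-G37R mice and 5.79 to 6.32 in NT mice. Every treated cord lay above every untreated and NT cord. Untreated SOD1-G37R minus NT, Calca differed by -0.10 in these 12 males (adjusted p = 0.860, limma). In the other experiment that genotype difference was -0.87 (adjusted p = 2.1e-04, limma), so the 2 experiments differed on it. The Calca difference was 1.11 (SE 0.18, 95% interval 0.72 to 1.51), with an adjusted p of 0.144 by limma over all genes. Calca passed under some alternatives, with an adjusted p by limma of 0.024 among genes of mean level above 2, 0.0076 with a trend of spread on level, 0.034 with all 18 males in the fit and 0.014 without MIF-treated mouse 3. It did not pass with all 24 mice (adjusted p = 0.052 by limma), in the 8 cords alone (0.575) or without untreated mouse 1 (0.544). Without the 3 cords of high Hba-a1 the difference was 0.95 and the adjusted p 0.977.

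Other motor neuron genes stood partly beside Calca. Of 18 measured, 13 had a difference above 0 and 5 below, and the list median was 0.10. An unadjusted p under 0.05 with the higher level in MIF-treated mice was reached by 5 of the 18, beside 1.78% of all genes. They were Calca and its paralogue Calcb (0.54), Chodl, a marker of fast motor neurons (0.50), Chat, which makes acetylcholine (0.43), and Ret, the GDNF receptor kinase (0.31). Calca and Calcb have similar sequences, and reads could be split between them. Chat stood at 3.42, 3.97, 3.56 and 3.47 in MIF-treated mice, against 2.63, 3.30, 3.44 and 3.34 in untreated SOD1-G37R mice and 3.41 to 3.97 in NT mice, so that 3 of the 4 treated cords lay above all untreated ones. Ret stood at 6.83, 6.68, 6.32 and 6.50 in MIF-treated mice, against 6.19, 6.29, 6.31 and 6.31 in untreated SOD1-G37R mice and 6.49 to 6.72 in NT mice. The mean level of the list was 5.01 to 5.33 in MIF-treated mice, 4.82 to 5.07 in untreated SOD1-G37R mice and 4.94 to 5.14 in NT mice. The count, the median and these means hold Calca, so they are not separate from the Calca result. Without the 3 cords of high Hba-a1 the count was 2 of 18, beside 2.54% of all genes in that fit. Single cords moved these values too: Chat differed by 0.25 without untreated mouse 1, Calcb by 0.33 without MIF-treated mouse 1 and Chodl by 0.30 without MIF-treated mouse 2. In whole tissue, more cells of a type and more RNA per cell cannot be told apart, for this and every list below.

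Other neuronal lists were mixed. The 19 synaptic and pan-neuronal genes had a median of 0.01, with none at an unadjusted p under 0.05, and the 25 neuropeptide genes a median of -0.12. Calca and Calcb were the 2 neuropeptide genes with an unadjusted p under 0.05 and the higher level in MIF-treated mice, and Nmu, neuromedin U, at -0.32, the 1 with the lower level, beside 1.78% and 1.51% of all genes. The 5 neurofilament genes, structural proteins of large axons, all differed above 0, with a median of 0.28, or 0.17 to 0.41 without any 1 of the 8 mice, and none at an unadjusted p under 0.05. Of the sensory neuron list, 11 genes were measured with a median of 0.08, and the 2 with an unadjusted p under 0.05 were again Calca and Calcb. Tac1, which encodes substance P of pain-sensing afferents, differed by -0.26, and the sodium channels of such afferents, Scn9a, Scn10a and Scn11a, were not analysed here.

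IgG heavy chain and kappa transcripts stood in all 4 MIF-treated cords above the other 8 cords of the fit, at low levels. In those 8 cords they lay near the low end of the scale with little spread. The SD in untreated SOD1-G37R mice was 0.035 for Ighg2c and 0.010 for Ighg2b. Ighg2c, the IgG2c heavy chain constant region, stood at 2.54, 1.05, 1.94 and 2.51 in MIF-treated mice 1 to 4, against 0.94, 1.01, 0.96 and 0.93 in untreated SOD1-G37R mice and 0.88, 0.96, 0.99 and 0.94 in NT mice. MIF-treated mice 1, 3 and 4 stood apart, and mouse 2 was near the untreated cords. The Ighg2c difference was 1.05 (SE 0.23, adjusted p = 0.997 by limma), and without MIF-treated mouse 2 it was 1.37 with an adjusted p of 7.4e-04. That was the 1 of the 12 fits without a single mouse in which Ighg2c passed. With a trend of spread on level its adjusted p by limma was 0.047. It did not pass with all 18 males (adjusted p = 0.252 by limma), with all 24 mice (0.072) or in the 8 cords alone. Ighg2b, the IgG2b heavy chain, stood at 0.88, 0.49, 1.68 and 0.89 in MIF-treated mice, against 0.24 to 0.27 in untreated SOD1-G37R mice and 0.22 to 0.28 in NT mice.

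Igkc, the kappa light chain, stood at 0.24, 0.18, 0.29 and 1.05 in MIF-treated mice, against -0.09 to -0.07 in untreated SOD1-G37R mice and -0.11 to -0.07 in NT mice. Here mouse 4 was the highest, and all 4 treated cords lay above the rest. Ighm, the IgM heavy chain, behaved differently, at 6.70, 6.40, 6.12 and 6.48 in MIF-treated mice, against 5.67, 6.09, 5.76 and 6.36 in untreated SOD1-G37R mice and 6.18 to 6.74 in NT mice. All 4 measured genes of the B and plasma cell list had an unadjusted p under 0.05 with the higher level in MIF-treated mice, beside 1.78% of all genes, and their median was 0.63. For Ighg2c, Ighg2b and Igkc these differences were taken against levels near the low end of the scale. The Ighm levels of MIF-treated mice overlapped those of NT mice. The count was 3 of 4 and the median 0.67 without the 3 cords of high Hba-a1, beside 2.54% of all genes in that fit, with Ighg2c at 0.89, Ighg2b at 0.76, Igkc at 0.59 and Ighm at 0.28. Igkc differed by 0.32 without MIF-treated mouse 4, against 0.52 with it. The mean level of the list was 2.03 to 2.73 in MIF-treated mice, 1.69 to 1.86 in untreated SOD1-G37R mice and 1.82 to 1.97 in NT mice. Ms4a1, Cd79a, Cd79b, Igha and Jchain were not analysed here, and the values rest on immunoglobulin constant regions alone. The constant regions of the IgG subclasses are alike in sequence, and reads may be shared between them.

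Ccl5, a chemokine of T cells, NK cells and activated glia, stood at 4.18, 3.49, 3.43 and 3.34 in MIF-treated mice, against 2.83, 2.30, 2.73 and 3.03 in untreated SOD1-G37R mice and 2.19 to 2.88 in NT mice. The groups did not overlap, and the difference was 0.89 (SE 0.20). The other T cell genes lay nearer 0. Of the 8 measured genes of the T cell list, Ccl5 was the 1 with an unadjusted p under 0.05, beside 1.78% of all genes with the higher level in MIF-treated mice, the median was 0.03, and Trac and Trbc2, the constant regions of the T cell receptor, differed by 0.04 and 0.14. Cd8a lay between -0.20 and -0.08 in MIF-treated mice and between -0.25 and 0.12 in untreated SOD1-G37R mice, at the bottom of the scale. Gbp2, an interferon-induced guanylate-binding protein, stood at 3.30, 2.95, 2.78 and 2.92 in MIF-treated mice, against 2.33, 2.46, 2.67 and 2.63 in untreated SOD1-G37R mice and 2.11 to 2.32 in NT mice. It was the 1 of 20 interferon-stimulated genes with an unadjusted p under 0.05, beside 1.78% of all genes, and the list median was 0.11. None of the 20 had one without the 3 cords of high Hba-a1, where the interferon median was -0.09, Ccl5 differed by 0.54 and Gbp2 by 0.23.

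**Figure D3:**
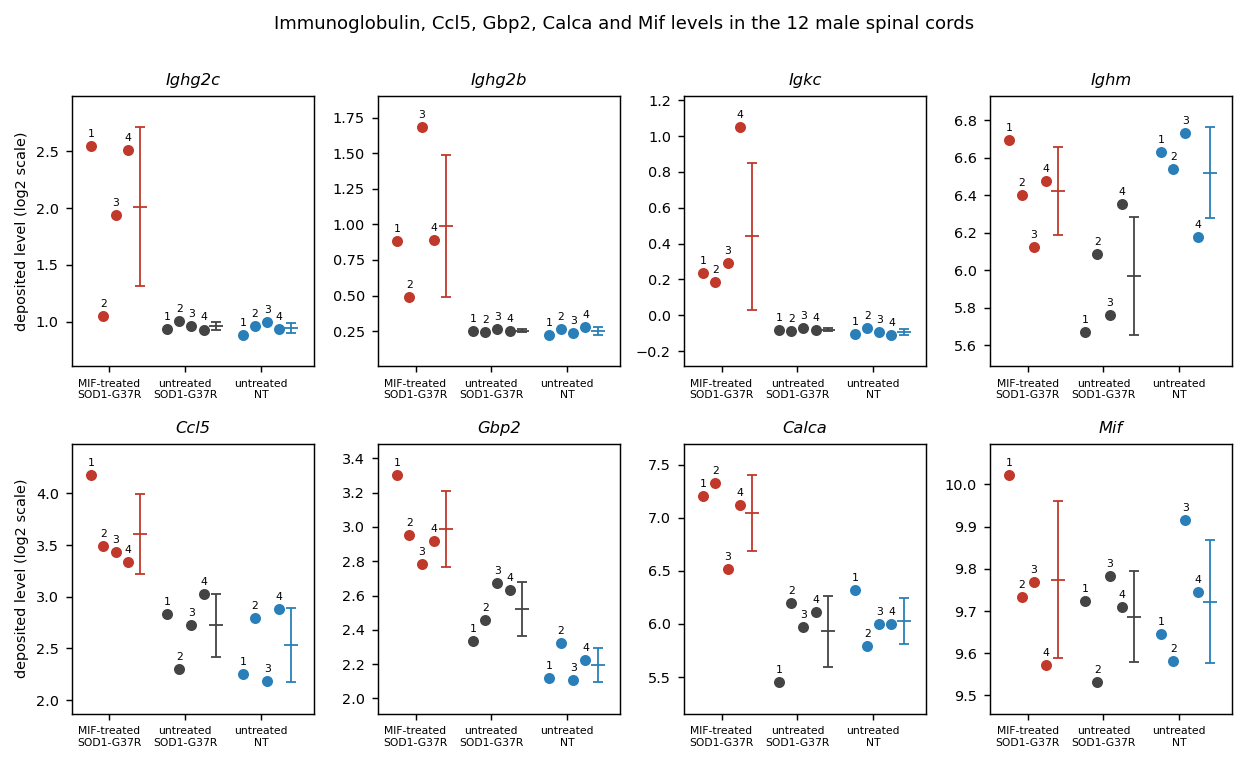
Deposited levels (log2 scale, y axes) of Ighg2c, Ighg2b, Igkc, Ighm, Ccl5, Gbp2, Calca and Mif in each of 12 male cords, numbered by mouse; the bar beside each group is the mean ± SD of its 4 mice. The treated cords lie above the untreated SOD1-G37R cords for each gene but Ighm and Mif, and MIF-treated mouse 2 has the lowest Ighg2c (1.05) and Igkc (0.18) of its group.

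The microglial genes that mark the disease were close to level between MIF-treated and untreated mice. Of 25 disease-associated microglia genes none had an unadjusted p under 0.05, 12 differences were above 0 and 13 below, the median was -0.04 and the range -0.22 to 0.50. The median was -0.14 to 0.18 without any 1 of the 8 mice, and -0.12 without the 3 cords of high Hba-a1, where Lyz2 was the 1 of 25 with an unadjusted p under 0.05. In the same fit 21 of the 25 were higher in untreated SOD1-G37R than in NT mice at an adjusted p under 0.05 by limma, beside 3.33% of all genes (0.464% were lower), with a median of 1.598. Lgals3, galectin 3, stood at 8.98, 8.35, 8.89 and 8.12 in MIF-treated mice, against 8.68, 8.34, 9.13 and 8.16 in untreated SOD1-G37R mice and 5.26 to 6.23 in NT mice. Cd68, a lysosomal protein of phagocytes, stood at 8.38, 7.88, 8.78 and 8.03 in MIF-treated mice, against 8.09, 8.33, 8.92 and 7.70 in untreated SOD1-G37R mice and 5.53 to 5.98 in NT mice. Both sets of SOD1-G37R cords thus occupied one range, well above NT.

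The member furthest from 0 was Lyz2, lysozyme, at 0.50 with a 95% interval of -0.27 to 1.26 and 0.19 to 0.86 without any 1 mouse. Among 15 homeostatic microglia genes the median was -0.08, and Olfml3 was the 1 with an unadjusted p under 0.05, beside 1.51% of all genes with the lower level in MIF-treated mice. It stood at 0.90, 1.03, 1.02 and 1.16 in MIF-treated mice, against 1.33, 1.30, 1.48 and 1.32 in untreated SOD1-G37R mice and 0.98 to 1.2 in NT mice. The 5 measured genes of border macrophages and monocytes had a median of 0.07, with a mean level of 2.57 to 2.89 in MIF-treated mice, 2.51 to 2.90 in untreated SOD1-G37R mice and 2.08 to 2.28 in NT mice. Its defining members Mrc1, Lyve1 and Ccr2 were not analysed here. The levels of these microglial and macrophage lists overlapped between treated and untreated mice. The part of cell content in the class II and Cd74 values was not tested.

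Reactive astrocyte genes had a median of -0.08 over 19 genes, with Tnc, an extracellular matrix protein, at -0.29 and Aspg at -0.27. Gfap, the astrocytic intermediate filament, stood at 12.10 to 12.81 in MIF-treated mice at 12.19 to 13.07 in untreated SOD1-G37R mice and at 10.47 to 11.12 in NT mice. Complement genes had a median of 0.05 over 16 and NF-kappa B pathway genes a median of 0.01 over 21, with none at an unadjusted p under 0.05 in either list.

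**Figure D4:**
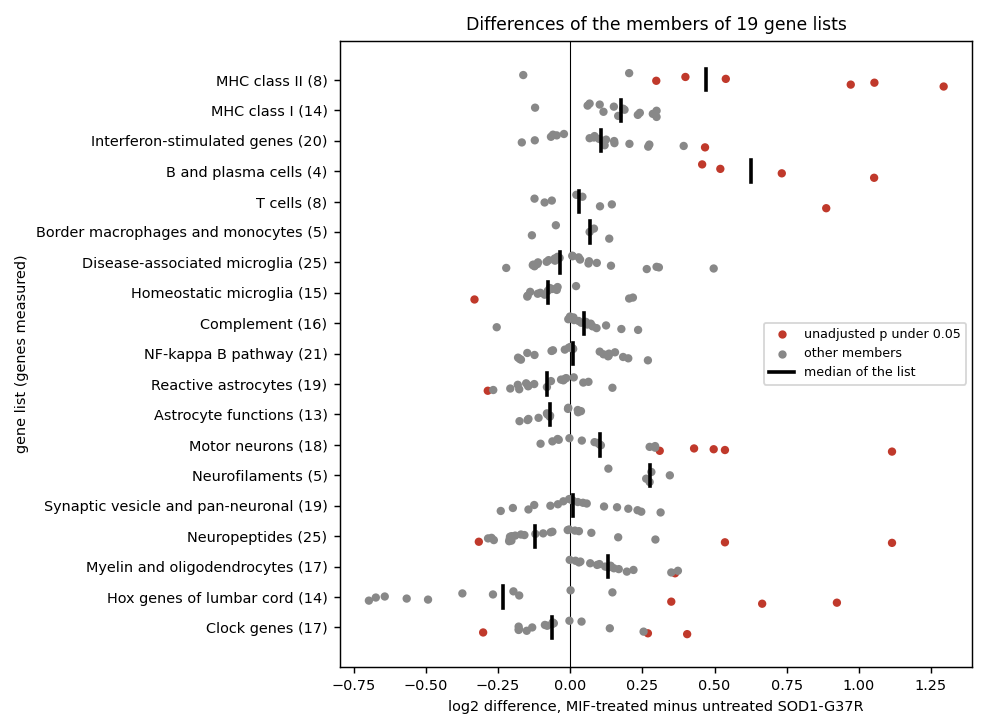
Log2 difference (x axis, MIF-treated minus untreated SOD1-G37R) of each measured member of 19 gene lists (rows, with the number of genes); black bars are list medians and red points have an unadjusted p under 0.05 by limma. The lists of largest median are B and plasma cells (0.63) and MHC class II (0.47), and that of disease-associated microglia sits at -0.04.

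The genotype difference of the other experiment gave a wider list from mice that share no animal with the 8 compared here. There, 2030 genes were higher (13.1%) and 1720 lower (11.1%) in SOD1-G37R than in NT mice at an adjusted p under 0.05 by limma. With each mouse centred on its median the split was 1464 higher and 2559 lower. Between MIF-treated and untreated mice the 2030 had a median difference of -0.03, with 25 (1.23%) at an unadjusted p under 0.05 above 0 and 41 (2.02%) below. The 1720 had a median of 0.02, with 32 (1.86%) above and 11 (0.64%) below. Of all genes, 1.78% lay above and 1.51% below at that p. Without any 1 of the 8 mice the medians ranged from -0.077 to 0.031 and from -0.011 to 0.066. Serpina3n, an acute phase serpin of reactive astrocytes and the leading gene of that genotype difference, stood at 10.52, 10.07, 10.89 and 10.42 in MIF-treated mice, against 10.46, 10.50, 11.06 and 9.95 in untreated SOD1-G37R mice and 7.17 to 7.69 in NT mice. Nefh, the heavy neurofilament chain, which was 1.39 lower in SOD1-G37R mice there, stood at 9.51, 10.61, 9.92 and 10.27 in MIF-treated mice, against 9.28, 9.99, 9.46 and 10.20 in untreated SOD1-G37R mice and 10.42 to 10.58 in NT mice.

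Hox genes, whose paralogue number follows position along the body axis with higher numbers further back, differed with both signs. Hoxc8 stood at 7.02, 7.45, 6.78 and 6.48 in MIF-treated mice, against 5.18, 6.40, 6.25 and 6.21 in untreated SOD1-G37R mice and 5.75 to 6.67 in NT mice. Hoxc6 stood at 6.64, 6.68, 6.25 and 6.06 in MIF-treated mice, against 5.46, 5.80, 6.04 and 5.67 in untreated SOD1-G37R mice and 5.48 to 5.93 in NT mice. Neither gene overlapped between treated and untreated cords, with differences of 0.92 (SE 0.27) and 0.66 (SE 0.16). Hoxa7 differed by 0.35. The posterior genes lay below 0, with Hoxc11 at -0.70, Hoxd10 at -0.67, Hoxc10 at -0.64 and Hoxa11 at -0.49, all with intervals that include 0. Of 14 measured Hox genes, 3 had an unadjusted p under 0.05 with the higher level in MIF-treated mice and none with the lower one, beside 1.78% and 1.51% of all genes, and the median was -0.23. Without the 3 cords of high Hba-a1 the Hox count was 2 of 14 and the median -0.15, with Hoxc8 at 0.68, Hoxc6 at 0.48, Hoxd10 at -0.29 and Hoxc10 at -0.14. Hoxc8 differed by 0.65 without untreated mouse 1. Whether the treated cords were cut at another level was not tested, and the part of Hox position in the Calca, motor neuron and class II values was not tested either.

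**Figure D5:**
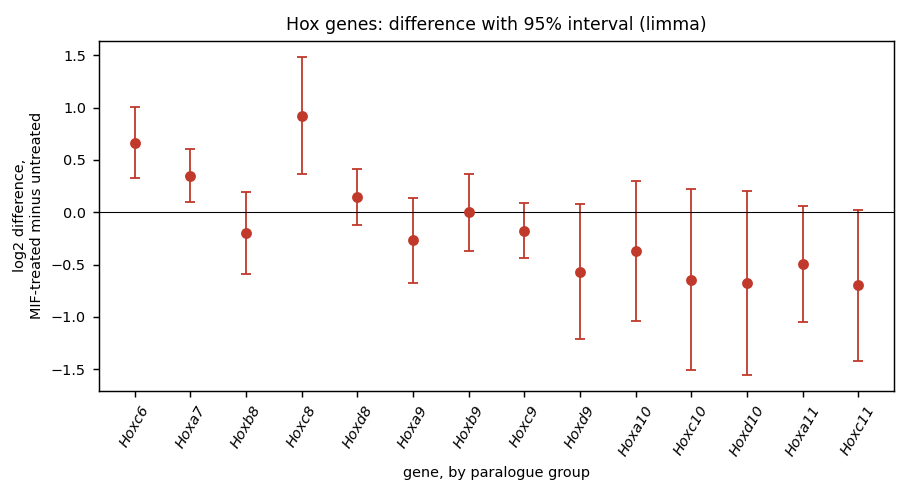
Log2 difference (y axis, MIF-treated minus untreated SOD1-G37R) of 14 Hox genes in order of paralogue number (x axis); points are the difference of group means and bars the 95% interval by limma. Hoxc8 (0.92), Hoxc6 (0.66) and Hoxa7 (0.35) have intervals above 0, and the genes of groups 10 and 11 have point differences below 0 with intervals that include 0.

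The other leading genes with the treated cords above were few and mixed. 1600012H06Rik stood at 3.68, 3.99, 3.73 and 3.73 in MIF-treated mice, against 3.37, 3.01, 3.22 and 3.17 in untreated SOD1-G37R mice and 3.26 to 3.64 in NT mice. MIF-treated minus untreated, 1600012H06Rik differed by 0.59 (SE 0.12, adjusted p = 0.763 by limma). E2f4, a transcription factor that represses cell cycle genes, stood at 5.49, 5.57, 5.54 and 5.66 in MIF-treated mice, against 4.98, 4.94, 5.08 and 5.26 in untreated SOD1-G37R mice and 5.18 to 5.44 in NT mice, and it differed by 0.50 between treated and untreated mice (SE 0.10, adjusted p = 0.776 by limma). The SD in MIF-treated and untreated SOD1-G37R mice was 0.14 and 0.15 for 1600012H06Rik, and 0.07 and 0.14 for E2f4. Tmem64, a membrane protein, and Pitpnc1, a phosphatidylinositol transfer protein, each differed by 0.42.

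With the treated cords below, the 12 non-overlapping genes of smallest p differed by -0.49 to -0.33. Axin2, a feedback inhibitor of Wnt signalling, stood at 3.75, 3.70, 3.75 and 3.68 in MIF-treated mice, against 4.08, 4.22, 4.07 and 4.04 in untreated SOD1-G37R mice and 3.85 to 4.08 in NT mice. Sap130 and Sin3a, which belong to the same histone deacetylase complex, differed by -0.39 and -0.38. Ube2s, a ubiquitin-conjugating enzyme of the anaphase-promoting complex, differed by -0.46, and Abl2, a tyrosine kinase, by -0.44. The rest were Rpap1, D130043K22Rik, Tmem267, Liph, Ctxn3, Olfml3 and Spag8.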

How the data were processed

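Lumbar cord RNA of 24 mice was read by MARS-seq. Per the submitters' notes, the authors used cutadapt 1.15 and Trim Galore 0.4.5 for trimming, STAR 2.5.2a for alignment to GRCm38 and RSEM 1.2.28 for counts, and removed the experiment batch with SVA/ComBat. The deposited values are on a log2-like scale whose exact transform is not given in the sources used here, run from -0.79 to 14.761 and carry no read depth per mouse; no linear folds are given. Every column of values per mouse was mapped by name (0 left out). Columns holding the authors' own fold changes and p-values were not used. Symbols came from the table (13809) or GENCODE M21 (1711).

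limma 3.58.1 in R 4.3.3 fitted the 12 males in 3 groups, without filter or trend, with Benjamini-Hochberg adjustment at 0.05 and 95% intervals. The fit was tested on simulated data. The other experiment's genotype fit had a sex term. Exact permutation tests covered Cd74, Calca, H2-Aa, Mif and Sod1. Named genes were those, any that passed, per direction the 12 non-overlapping genes of smallest p, 2 to 4 per list, and the leading genotype genes; others (Gfap, Snap25, Hoxd10, Hoxc10, Mir692-2 and Gm10358) were chosen after their values were seen. Members and the 41 lists were chosen with earlier results of these data known. Alternatives covered scaling, filters, variance models, mice in the fit, a replicate block and leaving out mice. Nothing states that the cords came from separate cages or litters; p-values measure the spread between these mice.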

Additional observations from a re-analysis of the deposited data

Results flagged for a closer look

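In each group of 4 mice, a cord was singled out where its gap to the nearest other cord was too large a share of the group's range by Dixon's test at its 95% critical value. This was looked at for 77 genes in 3 groups, 231 groups in all, and chance alone singles out about 1 in 20. It gave 9 values.

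Among MIF-treated mice, Hba-a1 was 10.15 in mouse 1 beside 4.93 to 5.53 in the others, Igkc was 1.05 in mouse 4 beside 0.18 to 0.29, and 1600012H06Rik was 3.99 in mouse 2 beside 3.68 to 3.73. Among untreated SOD1-G37R mice, Hoxc8 was 5.18 in mouse 1 beside 6.21 to 6.40, and Hoxc10 was 5.95 in mouse 3 beside 6.65 to 6.75. Sod1 was 10.50 in untreated mouse 1 beside 10.10 to 10.11, and Gm10358 was 3.21 in untreated mouse 2 beside 2.91 to 2.95. Among NT mice, Spag8 was 1.74 in mouse 1 beside 1.44 to 1.46, and H2-DMb1 was 3.43 in mouse 4 beside 3.94 to 4.03. The difference between MIF-treated and untreated mice was 0.65 for Hoxc8 and -0.004 for Sod1 without untreated mouse 1, against 0.92 and -0.10 with it, and 0.32 for Igkc without MIF-treated mouse 4, against 0.52 with it.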

How the results depend on the processing

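The count of genes passing an adjusted p of 0.05 by limma was 1. It was also 1 with each mouse centred on its median, after quantile normalization, with robust empirical Bayes, with all 24 mice and at a threshold of 0.10. It was 2 for genes of mean level above 2, for genes above the median level and with all 18 males, 3 with a trend of spread on level, and 0 with the 8 mice alone, under either replicate block and without the 3 cords of high Hba-a1 (a choice made after seeing the data). At an unadjusted p under 0.05 the settings with 0 gave 464 genes (8 mice), 594 and 719 (blocks of 12 and 8 mice) and 718 (without the 3 cords). Leaving out 1 mouse gave 0 to 2 genes.

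Cd74 differed by 1.29 in the 8-mouse fit (adjusted p = 0.195) and under the replicate block of 12 mice (0.076) and of 8 mice (0.346), and by 1.16 without the 3 cords. Without any 1 mouse it differed by 1.12 to 1.42, with adjusted p of 0.0079 to 0.107. Calca differed by 1.115 among genes above level 2 (0.024), among genes above the median (0.028), with the trend (0.0076) and with 18 males (0.034), where its adjusted p passed, and under the replicate blocks of 12 (0.322) and 8 mice (0.346), where it did not, and by 0.95 to 1.29 without any 1 mouse. Its exact permutation p, 0.029, is unadjusted and common to all 279 genes without overlap. Same-numbered treated and untreated mice correlated at 0.37, 0.11, 0.25 and 0.06, and MIF-treated mouse 4 correlated best with untreated mouse 2 (0.37), so the numbers were not taken to pair the mice.

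Small differences of genes that did not pass changed sign. Centred on the median, Lgals3 was -0.005 and Cd68 -0.003. Without the 3 cords, Mif was -0.055, Lgals3 -0.19, Cd68 -0.08, H2-DMa -0.062, Cd44 0.15, Ddt -0.052 and Hba-a1 0.058. Without any 1 mouse, the ranges were -0.20 to 0.17 for Serpina3n, -0.13 to 0.19 for Lgals3, -0.18 to 0.23 for Cd68, -0.32 to 0.082 for Fcrls, -0.39 to 0.017 for Cd44, -0.039 to 0.14 for Ddt, -0.08 to 0.11 for Trac, -1.90 to 0.17 for Hba-a1 and -0.25 to 0.05 for Gfap. List medians ranged from -0.24 to -0.024 for neuropeptides, -0.077 to 0.083 for axonal injury and -0.12 to 0.006 for clock genes, more than 1 SD between mice of the list's own mean level. The other 38 medians moved by less than theirs, some widely (-1.84 to 0.14 for red blood cells, 0.31 to 0.61 for class II). In the other experiment the genes passing numbered 3750, 4023 with each mouse centred and 3617 without a sex term, both chosen after seeing the data. The cause of these shifts was not tested. The deposited levels carry no read depth per mouse, and with 4 mice a group differences within the median 95% interval, 0.28 to either side, could not be resolved.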

Other observations

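Of 17 myelin genes, 16 had a difference above 0, with a median of 0.13 beside 0.00 for all genes, or 0.049 without the 3 cords of high Hba-a1. Ermn, a cytoskeletal protein of mature oligodendrocytes, stood at 5.70, 6.08, 5.51 and 5.85 in MIF-treated mice, against 5.43, 5.70, 4.99 and 5.59 in untreated SOD1-G37R mice and 5.24 to 5.71 in NT mice. It was the 1 gene of the list with an unadjusted p under 0.05 by limma, beside 1.78% of all genes, at a difference of 0.36. Without the 3 cords the count was 3 of 17, beside 2.54% of all genes in that fit. Mal, a lipid raft protein of compact myelin, differed by 0.35. The mean level of the list was 8.71 to 8.80 in MIF-treated mice, 8.53 to 8.69 in untreated SOD1-G37R mice and 8.44 to 8.73 in NT mice.

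Of 17 clock genes, Nr1d2 (0.40) and Clock (0.27) had the higher level in MIF-treated mice and Cry1 (-0.30) the lower one at an unadjusted p under 0.05, beside 1.78% and 1.51% of all genes, and the list median was -0.06. Cry1, a repressor of the clock, stood at 4.30, 3.98, 4.11 and 4.28 in MIF-treated mice, against 4.66, 4.47, 4.32 and 4.43 in untreated SOD1-G37R mice and 4.16 to 4.54 in NT mice. The hour of collection is not given in the sources used here.

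Mir692-1, Mir692-2 and Gm10358 stood out by size, and the treated mice that were far above the rest differed between them. For Mir692-1 and Mir692-2 every treated cord lay above every untreated SOD1-G37R cord, as for 0.96% of all genes. The lowest treated cord was only a little above (4.29 against 4.16, and 2.88 against 2.80). Gm10358 overlapped. Mir692-1 (chr17:6895229-6895337, minus strand) stood at 4.97, 4.29, 9.33 and 8.63 in MIF-treated mice, against 4.16, 3.94, 4.13 and 3.54 in untreated SOD1-G37R mice and 3.33 to 3.62 in NT mice. MIF-treated mice 3 and 4 were far above the rest. Mir692-2 (chr4:125504749-125504857, plus strand) stood at 3.01, 5.80, 2.88 and 4.996 in MIF-treated mice, against 2.44, 2.49, 2.80 and 2.601 in untreated SOD1-G37R mice and 2.26 to 2.95 in NT mice. Here mice 2 and 4 stood above. Gm10358 stood at 9.25, 2.82, 2.79 and 9.03 in MIF-treated mice, against 2.93, 3.21, 2.95 and 2.91 in untreated SOD1-G37R mice and 2.585 to 3.001 in NT mice, with MIF-treated mice 1 and 4 above. Each was high in another set of treated mice, and their adjusted p was 1.0 by limma.

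Both Mir692 loci encode the same mature miRNA in RefSeq (GRCm38.p6), shown with the seed, bases 2 to 8, in capitals because reads of one locus cannot be assigned by it.
mmu-miR-692: aUCUCUUUgagcgccucacuc
The libraries read polyadenylated RNA and not small RNA, so these levels are not those of the mature miRNA. The Mir692-2 interval lies within Grik3 and overlaps in part with Ftl2-ps, a processed pseudogene, both on the same strand (GENCODE M21). Reads from these cannot be told apart.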
